A study of Mus musculus with 20 samples.

Results

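The genes described here encode the nuclear subunits of respiratory complexes III and IV and the proteins that assemble those complexes. They were chosen by symbol: 42 genes were listed, 18 subunits and 24 assembly factors. Of the 42, 37 had an intact line in the deposited data, and all 37 passed the filter on low counts. The lines of Uqcr10, Uqcr11, Cox6b1, Cox11 and Cox17 were displaced, holding 0 in every library but the first, and were not used, which left 15 subunits and 22 assembly factors among 10207 genes tested.

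RNA was sequenced from the livers of 20 female mice, 1 library per animal, in 4 groups of 5. The diet held oral combined contraceptives (OC) or vehicle, and the mice were sedentary or had a wheel for voluntary running (VWR). The groups are called vehicle sedentary, vehicle running, OC sedentary and OC running. The comparisons ask what OC did to liver transcripts at each level of activity, what running did on each diet, and whether the effects of OC and running depended on each other.

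Complex III (the cytochrome bc1 complex) takes electrons from reduced coenzyme Q and passes them to cytochrome c, and complex IV (cytochrome c oxidase) passes them from cytochrome c to oxygen. Both move protons across the inner mitochondrial membrane, and complex III is a known site of superoxide formation. Their catalytic cores are cytochrome b and Cox1 to Cox3, made in the mitochondrion, around which imported nuclear subunits are added in steps that need heme, copper and dedicated chaperones. Transcripts of mt-Cytb, mt-Co1, mt-Co2 and mt-Co3 were listed at 0 in all 20 libraries, so only the nuclear genes are described. These zeros were not read as absence of the transcripts from the livers, and the library totals hold no reads from these genes.

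Promoter windows from 250 bases before to 50 bases after the start (RefSeq, GRCm38.p6) were found for 34 of the 42 genes. The windows shown are those of the subunit of each complex with the smallest adjusted p for OC in sedentary mice among genes with a window. Capitals mark a match to the ETS motif (the GABPA factor, also called NRF2), read on the other strand. The Uqcrh window is chr4:116075021-116075320 on the minus strand, and the Cox5a window is chr9:57520982-57521281 on the plus strand.
Uqcrh: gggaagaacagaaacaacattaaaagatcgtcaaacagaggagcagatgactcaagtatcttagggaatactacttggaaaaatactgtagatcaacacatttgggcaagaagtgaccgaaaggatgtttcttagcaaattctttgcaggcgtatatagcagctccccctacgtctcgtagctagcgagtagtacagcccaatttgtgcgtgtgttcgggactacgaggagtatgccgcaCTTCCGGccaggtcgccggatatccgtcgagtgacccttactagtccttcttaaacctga
Cox5a: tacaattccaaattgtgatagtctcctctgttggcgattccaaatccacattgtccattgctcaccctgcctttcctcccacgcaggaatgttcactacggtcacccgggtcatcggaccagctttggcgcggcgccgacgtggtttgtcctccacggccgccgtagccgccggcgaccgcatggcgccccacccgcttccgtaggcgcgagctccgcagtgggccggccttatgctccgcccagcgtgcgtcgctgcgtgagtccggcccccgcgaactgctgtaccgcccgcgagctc
Motifs were searched on both strands. The ETS letters CCGGAAG were in 5 of 13 subunit windows (38.5%) and 9 of 21 assembly factor windows (42.9%), against 9.12% of 27025 promoter windows. The letters of NRF1, CGCATGCG, were in 3 subunit windows (23.1%; Uqcrc1, Cox6a1 and Uqcr11) and 1 assembly factor window (4.76%; Ttc19), against 1.91%. YY1 (AAGATGGC) matched 0 subunit windows and 3 assembly factor windows (14.3%), against 2.88%, and ESRRA (AAGGTCA) matched 0 and 1 (4.76%), against 4.66%. The Cox5a window held none of the 4 motifs. The comparison windows were not limited to genes tested in these livers, and the subunit windows included genes with displaced lines, such as Uqcr11. A match describes letters only, and binding was not measured.

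Libraries held 10883936 to 16134618 counts, given below as CPM (counts scaled to a common library size by TMM), with log2 fold changes from edgeR and Benjamini-Hochberg adjusted p over all tested genes (threshold 0.05). Replicate 2 of the vehicle sedentary group stood apart on the second principal component. Replicate 5 of that group had the highest mean subunit level of the 20 libraries, 8.62 log2 CPM against 8.13 to 8.20 in the other 4 vehicle sedentary mice. Hepatocyte markers (7 of 10 measured) summed to 153000 to 212000 CPM in vehicle mice and 91760 to 133300 CPM in OC mice, so the diets did not overlap at either activity. Small subunit genes have processed pseudogenes, and how shared reads were counted is not given in the sources used here.

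Subunits were among the abundant liver transcripts, and assembly factors were far lower. Per kilobase of transcript, Cox4i1 was the highest at 1039 CPM per kb in vehicle sedentary mice. Uqcrh followed at 951 CPM per kb, and Cox7a2l, which ties complex III to complex IV in supercomplexes, was the lowest subunit at 140 CPM per kb. Assembly factors reached from 0.914 CPM per kb for Lyrm7, a chaperone of the Rieske protein, to 117 CPM per kb for Uqcc2, which acts on new cytochrome b. The highest assembly factor was thus below the lowest subunit on the per-length scale in these mice.

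In sedentary mice on OC, 9 of the 15 subunits fell, 0 rose, and the other 6 did not pass the test. Over all tested genes 7.2% were called lower in this comparison and 9.11% higher. The 9 were Uqcrc2, Uqcrb and Uqcrh of complex III and Cox4i1, Cox5a, Cox5b, Cox6c, Cox7b and Cox7c of complex IV. The median log2 fold change of the 15 subunits was -0.40, and their estimates ran from -0.62 to -0.058. For 10 subunits the highest OC mouse was below the lowest vehicle mouse, against 4.01% of all genes.

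**Figure D1:**
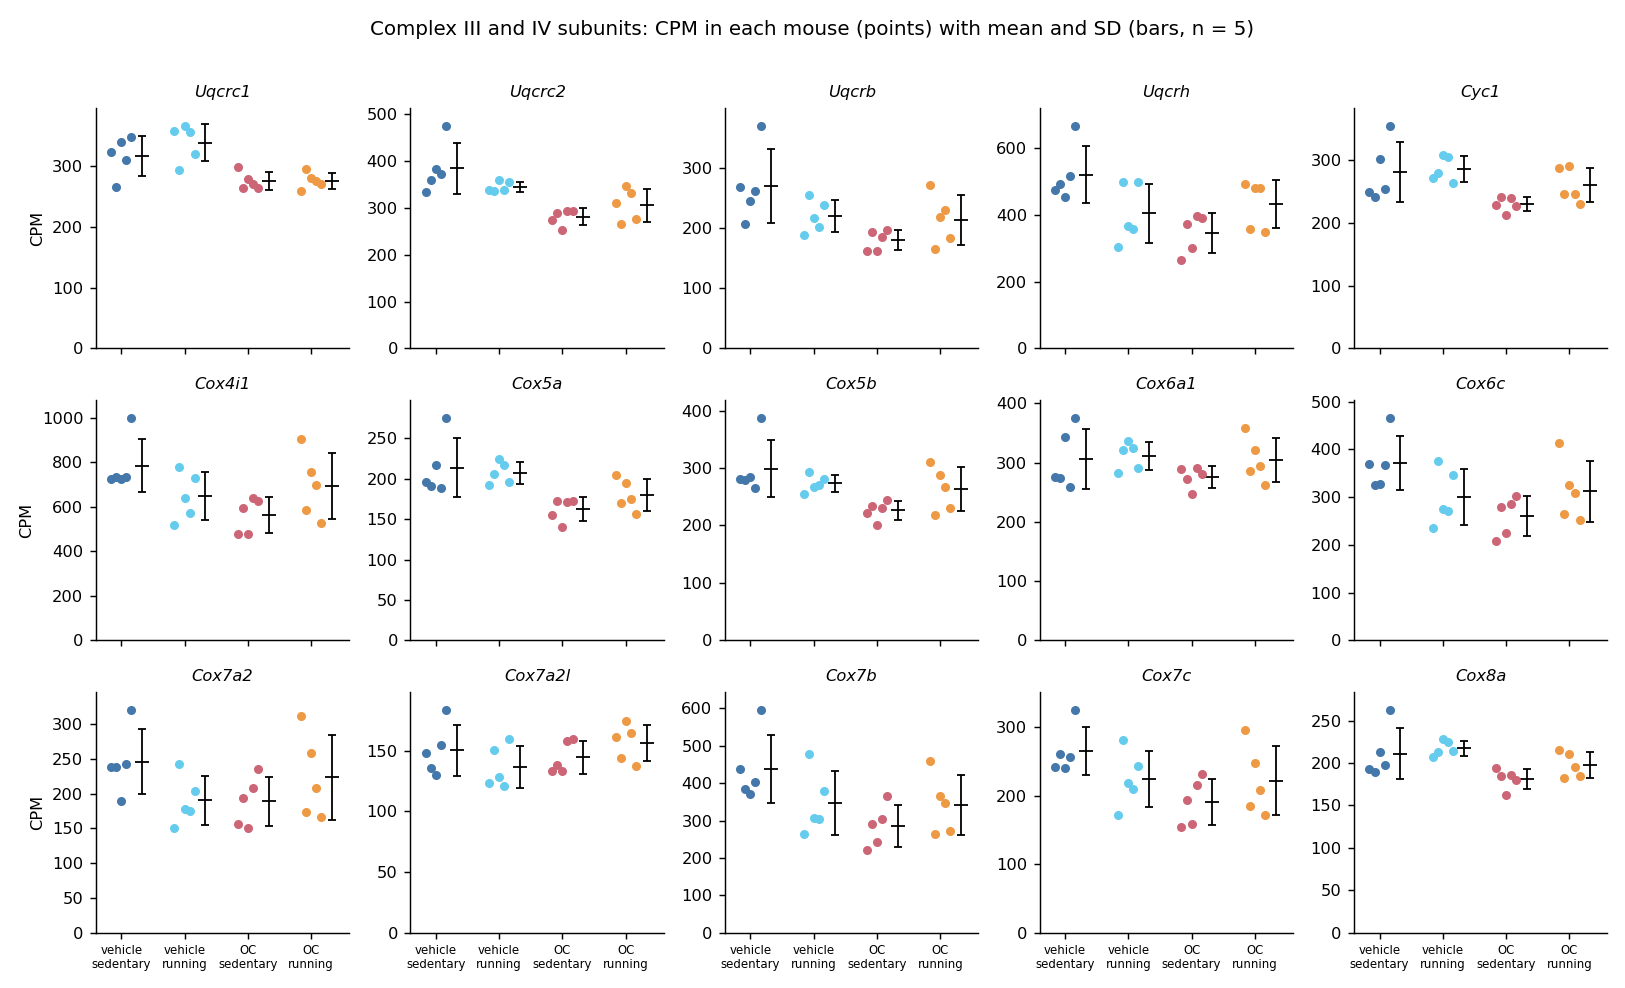
CPM of the 15 tested subunits (vertical axes, from 0) in each mouse of the 4 groups (points, in order of replicate), with the group mean and SD (bars, n = 5). In Uqcrc2 the OC sedentary mice lie between 251.6 and 293.7 CPM, all below the vehicle sedentary mice, and replicate 5 of the vehicle sedentary group is the highest point in all of these panels but Uqcrc1.

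Among complex III subunits, Uqcrc2 is a core protein on the matrix side (ENSMUSG00000030884, chromosome 7, 120635176 to 120659524, plus strand). Its CPM in the vehicle sedentary mice were 333.0, 358.7, 382.5, 371.9 and 474.8, and in the OC sedentary mice 274.3, 289.4, 251.6, 293.7 and 293.5. Every OC mouse was below every vehicle mouse. The log2 fold change was -0.45 (SE 0.097, adjusted p = 0.0032).

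Uqcrb, a small subunit next to the coenzyme Q site, had 268.1, 205.7, 243.9, 260.4 and 369.3 CPM in vehicle sedentary mice and 162.1, 193.4, 161.3, 184.4 and 197.3 CPM in OC sedentary mice. The groups did not overlap, with vehicle replicate 5 the highest by far. The log2 fold change was -0.58 (SE 0.14, adjusted p = 0.0092). Uqcrh, the hinge protein that helps cytochrome c1 meet cytochrome c and whose promoter is printed above, had 475.1, 491.1, 453.3, 514.6 and 665.7 CPM on vehicle and 263.7, 373.1, 300.0, 396.6 and 389.3 CPM on OC. These groups were also apart, at a log2 fold change of -0.59 (SE 0.16, adjusted p = 0.0144). Cyc1, the heme-carrying cytochrome c1, was at 280.8 ± 47.7 CPM on vehicle and 230.0 ± 11.7 CPM on OC (SD, n = 5) and did not pass the test (adjusted p = 0.0597). Uqcrc1, the other core protein, was at 317.3 ± 32.4 and 276.1 ± 14.7 CPM and did not pass either (adjusted p = 0.111).

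Among complex IV subunits, Cox5a faces the matrix and enters assembly early with Cox4i1 (ENSMUSG00000000088, chromosome 9, 57521274 to 57532426, plus strand). It had 195.4, 190.8, 217.5, 189.0 and 275.0 CPM in vehicle sedentary mice and 154.7, 172.8, 140.8, 171.5 and 173.0 CPM in OC sedentary mice. The groups did not overlap, and the log2 fold change was -0.39 (SE 0.11, adjusted p = 0.0156). Cox5b, a zinc-binding subunit, had 280.1, 279.7, 283.6, 265.2 and 387.0 CPM against 221.5, 233.5, 200.2, 230.9 and 244.6 CPM. Vehicle replicates 1 to 4 lay close together and above all OC mice, and replicate 5 was higher still (log2 fold change -0.40, SE 0.11, adjusted p = 0.0165).

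Cox4i1, the regulatory subunit that binds ATP, had 727.0, 733.8, 726.1, 736.1 and 998.9 CPM on vehicle and 480.0, 595.2, 477.6, 639.6 and 627.7 CPM on OC. All OC mice were below all vehicle mice (log2 fold change -0.48, SE 0.15, adjusted p = 0.0333). The small membrane subunit Cox7b had 438.3, 383.1, 372.3, 404.4 and 595.7 CPM on vehicle and 221.8, 289.4, 242.2, 303.9 and 365.5 CPM on OC. The highest OC mouse fell just short of the lowest vehicle mouse (log2 fold change -0.62, SE 0.18, adjusted p = 0.0242). Cox6c, also a small membrane subunit, had 369.3, 325.5, 327.3, 367.4 and 465.7 CPM against 207.3, 279.4, 224.0, 285.1 and 303.2 CPM. Its groups were apart as well (log2 fold change -0.51, SE 0.15, adjusted p = 0.0264). Cox7c was lower by a like amount (log2 fold change -0.47, adjusted p = 0.0419).

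Not every complex IV subunit passed the test in sedentary mice. Cox7a2l was at 150.5 ± 21.0 CPM on vehicle and 144.6 ± 13.3 CPM on OC (log2 fold change -0.058, 95% interval -0.279 to 0.163). Cox6a1 had a log2 fold change of -0.15 (95% interval -0.368 to 0.077). Cox7a2 and Cox8a had unadjusted p of 0.0428 and 0.0245 and did not pass after adjustment.

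The sedentary count rested partly on single mice. It was 5 without replicate 1 or 3 of the OC sedentary group or replicate 5 of the vehicle sedentary group, 2 (Uqcrc2 and Uqcrb) without vehicle replicates 2 and 5 together, and 4 with libraries scaled by their totals alone. In that last fit the median of all genes moved up by 0.115 on the log2 scale, and the subunit median was -0.28. The hepatocyte marker sums given above moved with diet. Stellate cell marker sums were 558.7 to 735.2 CPM on vehicle and 358.9 to 581.4 CPM on OC in sedentary mice. In running mice they were 520 to 664.4 and 357 to 541.2 CPM, so the diets overlapped at both activities. Median sums in sedentary mice were 530 and 566.1 CPM for Kupffer cells and 66.04 and 65.34 CPM for cholangiocytes. They were 260.6 and 201.3 CPM for endothelial cells, 9.181 and 6.368 CPM for lymphocytes and neutrophils, and 13.17 and 3.498 CPM for adipocytes. The part of these sums in the result was not tested. In bulk liver, fewer cells of a type and less RNA per cell cannot be told apart.

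In running mice only Uqcrc1 was called lower on OC among the 15 subunits, and 0 were called higher. Over all genes 6.06% were called lower and 7.09% higher. The subunit median was -0.034 on the log2 scale, with 10 estimates below 0 and 5 above, and 0 subunits had groups apart (4.95% of all genes did, with OC lower). Uqcrc1 (ENSMUSG00000025651, chromosome 9, 108936633 to 108949623, plus strand) had 358.6, 294.9, 367.0, 356.7 and 320.1 CPM in vehicle running mice and 259.0, 295.3, 281.0, 275.4 and 271.4 CPM in OC running mice. The highest OC mouse just passed the lowest vehicle mouse. The log2 fold change was -0.30 (SE 0.085, adjusted p = 0.0255). The call was lost without replicate 1 or 3 of the OC running group or replicate 1, 3 or 4 of the vehicle running group, with adjusted p up to 0.0719 over the fits that left out 1 library.

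Of the subunits that fell in sedentary mice, Uqcrb, Cox7b and Uqcrh were spread widely among the running mice on OC. Uqcrb had 188.2, 254.8, 217.0, 201.1 and 238.6 CPM in vehicle running mice and 270.8, 164.9, 217.9, 230.5 and 183.4 CPM in OC running mice. Cox7b had 263.2, 479.3, 305.5, 304.5 and 378.5 CPM against 458.3, 263.7, 366.8, 348.1 and 271.9 CPM. In both genes the groups overlapped fully, with OC running replicates 1, 3 and 4 high and replicates 2 and 5 low. Uqcrh showed the same order, with 491.2, 358.5, 478.6, 479.1 and 348.0 CPM on OC against 303.8, 496.3, 365.1, 358.1 and 496.8 CPM on vehicle. The log2 fold changes were -0.043 (95% interval -0.341 to 0.255) for Uqcrb, -0.019 (-0.397 to 0.359) for Cox7b and 0.093 (-0.232 to 0.418) for Uqcrh. Other subunits that fell in sedentary mice differed among themselves in running mice, and none was called. Mean CPM on vehicle and OC were 345.4 and 305.7 for Uqcrc2, 206.8 and 179.9 for Cox5a, and 273.3 and 263.0 for Cox5b. They were 225.1 and 222.1 for Cox7c, 648.1 and 693.2 for Cox4i1, and 300.6 and 312.8 for Cox6c.

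**Figure D2:**
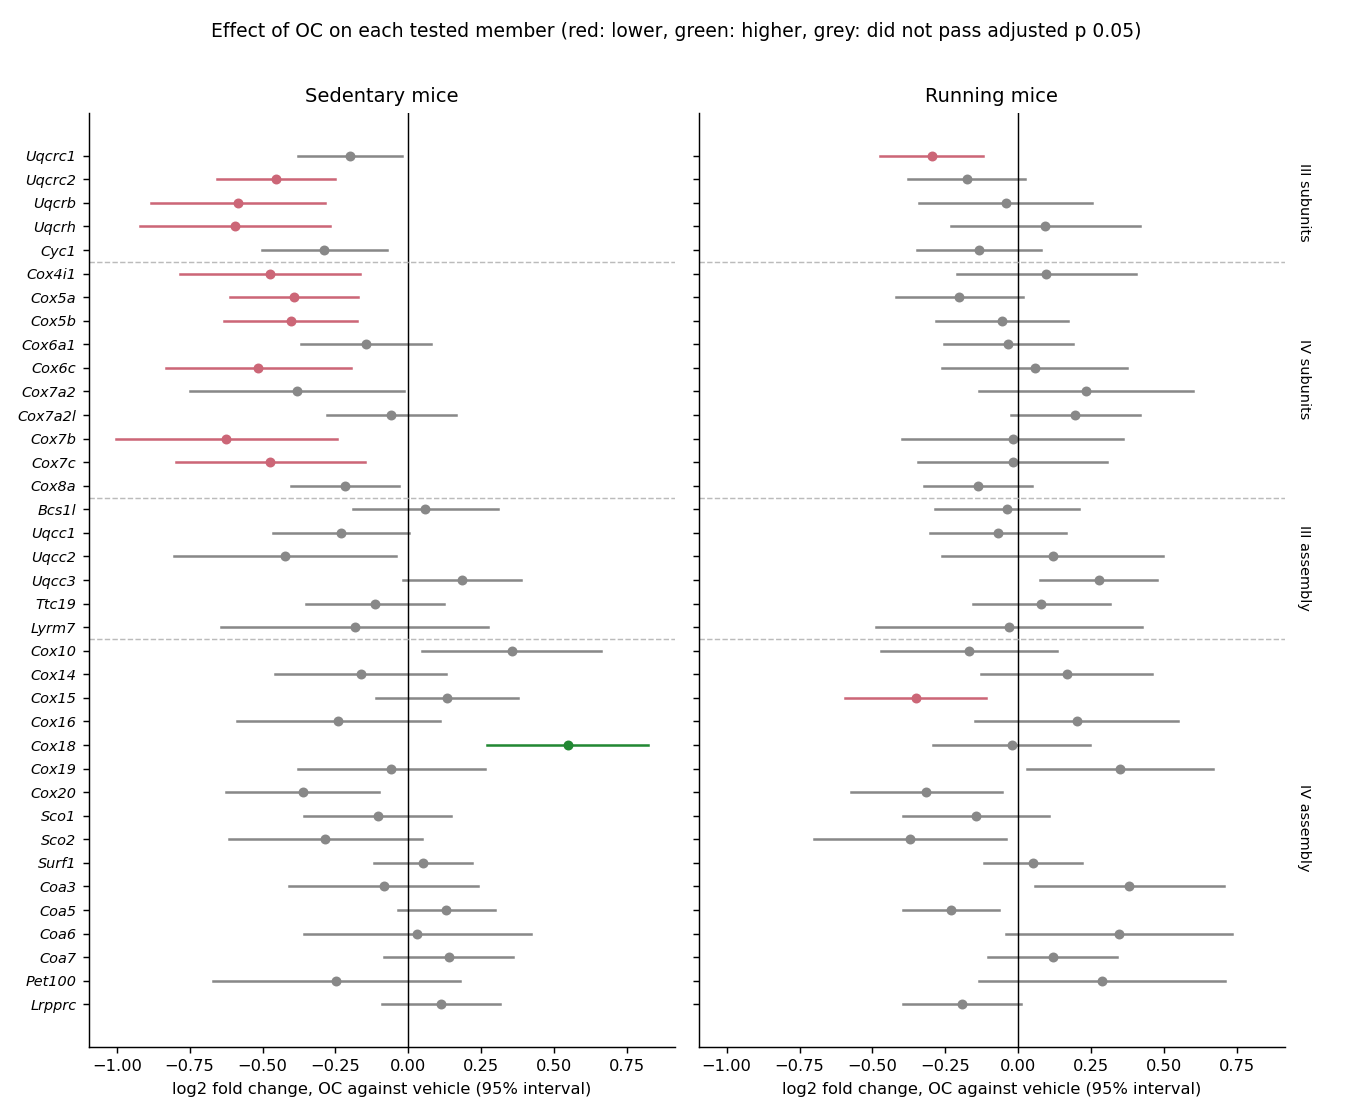
Log2 fold change on OC against vehicle (horizontal axis) with its 95% interval for each of the 37 tested genes in sedentary (left) and running mice (right), grouped by complex and role. The 9 red subunits on the left have intervals below 0, Cox18 is the only green gene, and on the right Uqcrc1 and Cox15 are the only coloured genes.

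The difference between the OC effects in running and sedentary mice was tested as an interaction. It was called for 0 of the 15 subunits and 0 of all genes (0%), with 1802 of 10207 genes and 7 of 15 subunits at an unadjusted p under 0.05. The subunit median of the interaction was 0.35 on the log2 scale, and 14 of 15 estimates were above 0. Uqcrh had the largest estimate (0.69, SE 0.22, unadjusted p = 0.00537, adjusted p = 0.201). DESeq2 called 119 genes in this comparison, Uqcrh and the assembly factor Coa5 among them. A difference in the OC effect between activities was thus not established for any subunit by the edgeR test.

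Averaged over activity, 7 of 15 subunits fell on OC and 0 rose, against 11% of all genes lower and 11.9% higher. They were 4 of 5 subunits of complex III (Uqcrc2, Uqcrc1, Uqcrb and Cyc1) and 3 of 10 of complex IV (Cox5a, Cox5b and Cox8a). Uqcrc2 had a log2 fold change of -0.32 (SE 0.068, adjusted p = 0.0019), Uqcrc1 -0.25 (SE 0.060, adjusted p = 0.0047) and Cox5a -0.30 (SE 0.074, adjusted p = 0.0060). Uqcrb had -0.31 (adjusted p = 0.0291) and Cox5b -0.23 (adjusted p = 0.0358). The calls of Uqcrc2, Uqcrc1 and Cox5a held in all 20 fits that left out 1 library, and that of Uqcrc1 was lost with library totals. Cyc1 (-0.21, adjusted p = 0.0400) and Cox8a (-0.18, adjusted p = 0.0476) held in 9 and 7 of those fits. The count of 7 was 3 without replicate 5 of the vehicle sedentary group or replicate 2 of the vehicle running group, and 4 without replicate 1 of the OC sedentary or replicate 2 of the OC running group.

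Running itself gave no calls on either diet, in subunits or in all genes (0%). On vehicle 1414 genes and 2 subunits had an unadjusted p under 0.05, on OC 694 genes and 0 subunits, and DESeq2 called 42 and 1 genes, 0 of them among the 37. The median subunit estimate for running was -0.15 on vehicle, with 11 of 15 below 0, and 0.22 on OC, with 15 of 15 above 0. The summed subunit level was 5057 ± 757 CPM in vehicle sedentary, 4451 ± 438 in vehicle running, 3790 ± 376 in OC sedentary and 4382 ± 660 in OC running mice (SD, n = 5). Vehicle sedentary and OC sedentary mice were the highest and lowest groups, and the running groups lay between them within 1 SD of each other.

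Subunit transcripts are short, and libraries differed in how read counts depended on transcript length. Subunits had a median transcript length of 659 bases (535 to 1896) and assembly factors 1846 bases (471 to 4798). For each library a slope was computed over 7443 other genes, as the change in log2 CPM relative to the mean of all libraries per doubling of length. A negative slope means that short transcripts took more of the reads. The calculation left out the members and other genes of the respiratory chain and of ribosomes, and it was added after seeing the data.

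In OC running mice the slopes of replicates 1 to 5 were -0.138, 0.0732, -0.112, -0.081 and 0.0275, and the mean subunit levels were 8.32, 7.89, 8.21, 8.10 and 7.85 log2 CPM. The 3 libraries with negative slopes were the 3 with high subunits. In vehicle sedentary mice replicate 5 had a slope of -0.0975, the lowest of its group, and the highest subunit level. Other libraries did not follow this order: vehicle sedentary replicate 2 had the next lowest slope of its group, -0.0541, and its lowest subunit level, 8.13 log2 CPM. Vehicle running replicate 2 had a slope of 0.0383 and the highest subunit level of its group, 8.27 log2 CPM. In OC sedentary mice replicate 3 had the highest slope of the 20 libraries, 0.0994, and the lowest subunit level, 7.71 log2 CPM. Vehicle running replicate 2, OC sedentary replicate 3 and OC running replicate 5 also held muscle transcripts, described below. The part of muscle RNA in their subunit levels was not tested. Group means of the slope were -0.018 in vehicle sedentary, 0.036 in vehicle running, 0.027 in OC sedentary and -0.046 in OC running mice.

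**Figure D3:**
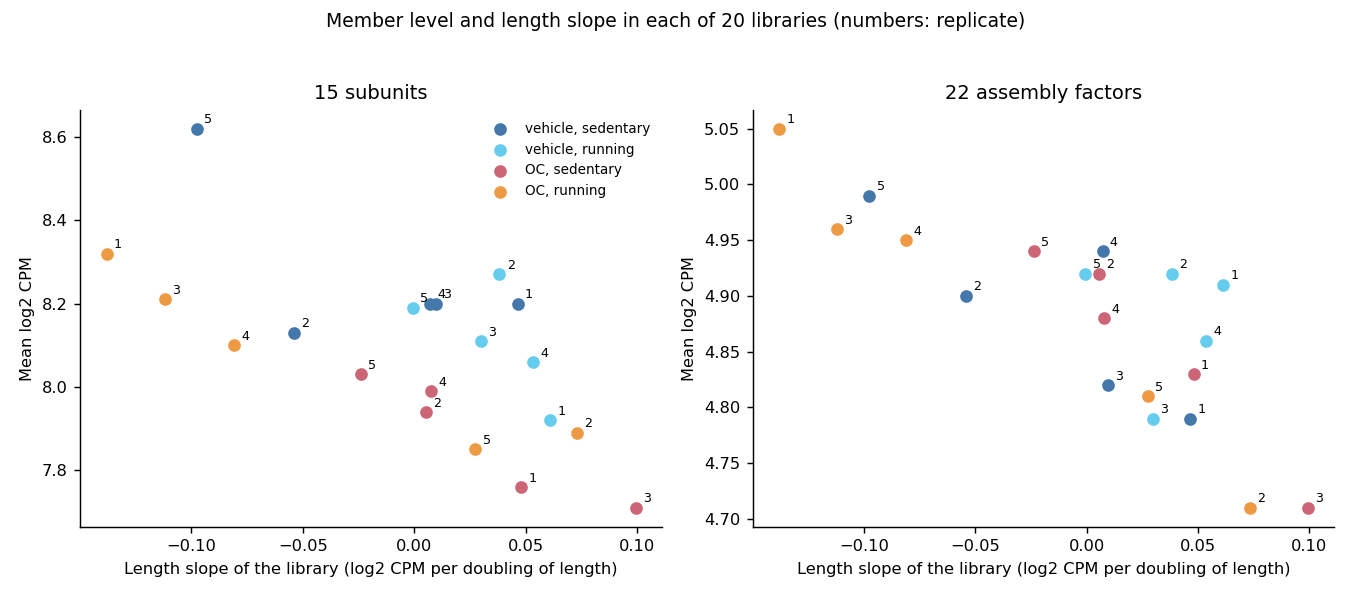
Mean log2 CPM of the 15 subunits (left) and of the 22 assembly factors (right) against the length slope of each of 20 libraries (log2 CPM per doubling of transcript length), coloured by group with replicate numbers. OC running replicates 1, 3 and 4 lie at slopes of -0.138 to -0.081 with subunit levels of 8.10 to 8.32, and OC sedentary replicate 3 at 0.0994 and 7.71.

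With the slope of each library as a covariate, the median OC effects in sedentary and running mice were close to each other. The subunit median was -0.31 in sedentary and -0.26 in running mice, and the interaction median was 0.024 with 10 estimates above 0 and 5 below. In sedentary mice 9 subunits were called lower (6.52% of all genes), in running mice 3 (Uqcrc2, Cox5a and Cox5b; 3.19%), and averaged over activity 12 (13.3%). Uqcrc2 was lower by 0.36 and 0.34 on the log2 scale in sedentary and running mice (log2 fold changes -0.36 and -0.34, adjusted p = 0.00151 and 0.0073). Cox7b moved in the running mice from -0.019 to -0.34, which did not pass the test (adjusted p = 0.184), and its interaction from 0.61 to 0.12. Cox7a2l stayed near 0 in both (0.022 and 0.050). The slope was measured on these same libraries, and whether it arose from RNA, library preparation or the livers was not tested. Its group means were lower in vehicle sedentary (-0.018) and OC running mice (-0.046) than in vehicle running (0.036) and OC sedentary mice (0.027). The slope and an interaction of OC and running therefore cannot be fully told apart in this fit.

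**Figure D4:**
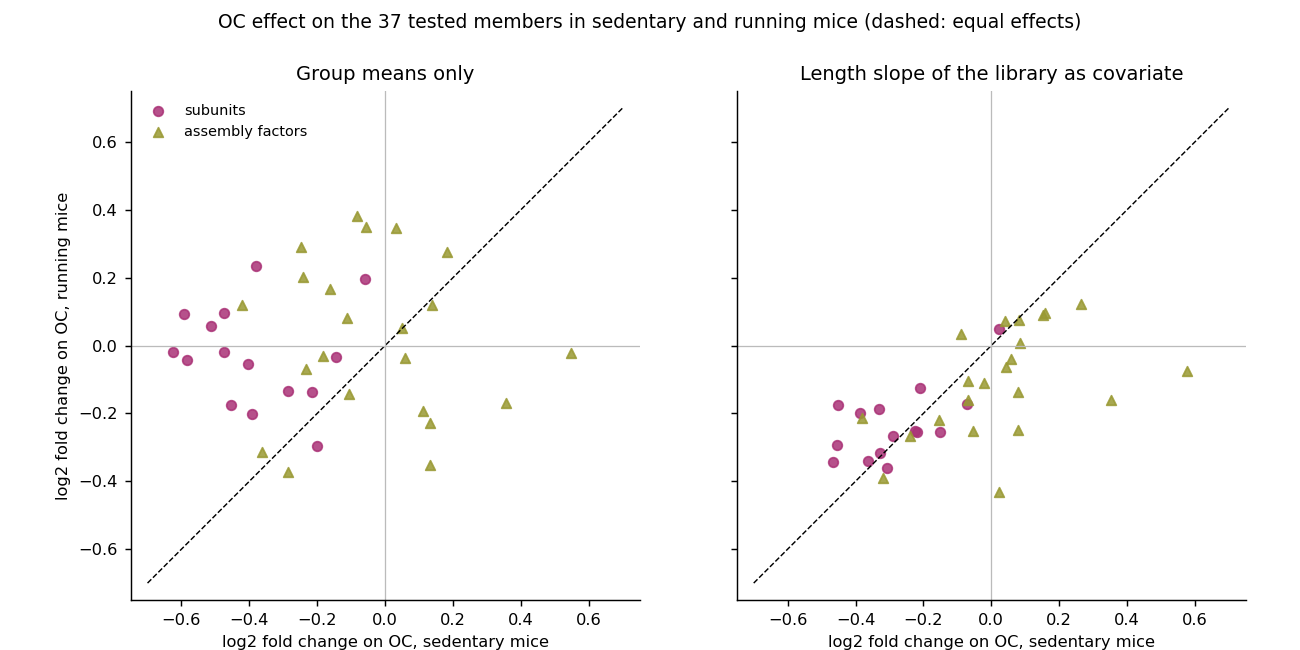
Log2 fold change on OC in running mice (vertical axis) against that in sedentary mice (horizontal axis) for the 15 subunits (circles) and 22 assembly factors (triangles), fitted with group means only (left) and with the length slope as covariate (right). The dashed line marks equal effects. On the right the subunits sit around the line, with medians of -0.31 in sedentary and -0.26 in running mice, and Cox18 stays apart.

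The assembly factors were counted apart. In sedentary mice on OC 1 of 22 rose and 0 fell (either direction: 16.3% of all genes), and the median log2 fold change was -0.071 with 12 estimates below 0 and 10 above. In running mice 1 fell and 0 rose (13.2% of all genes in either direction), with a median of 0.015. Averaged over activity 2 rose and 2 fell (22.9%), with a median of -0.007. With libraries scaled by totals alone, the calls were 3 higher and 0 lower in sedentary mice, 2 higher and 0 lower in running mice, and 4 higher and 0 lower on average, while the median of all genes moved up by 0.115 in each of these comparisons.

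Several assembly factors serve Cox2, the subunit that receives electrons from cytochrome c at a copper site. Cox18 inserts the tail of Cox2 through the inner membrane (ENSMUSG00000035505, chromosome 5, 90214724 to 90224001, minus strand). It had 5.219, 6.782, 6.904, 4.82 and 6.094 CPM in vehicle sedentary mice and 10.5, 8.195, 7.603, 8.337 and 8.921 CPM in OC sedentary mice. All OC mice were above all vehicle mice (7.01% of all genes), and the log2 fold change was 0.55 (SE 0.13, adjusted p = 0.0087). Without any 1 library the call held, with adjusted p of 0.00708 to 0.0323. In running mice Cox18 had 10.39, 8.617, 8.632, 7.632 and 6.932 CPM on vehicle and 9.716, 8.346, 7.534, 8.635 and 7.427 CPM on OC. The vehicle sedentary group was therefore the low group of the 4, since the other 3 overlapped each other (interaction -0.57, unadjusted p = 0.00591, adjusted p = 0.201). Averaged over activity Cox18 was higher on OC by 0.26 (adjusted p = 0.0455), which held in 5 of 20 fits without 1 library. The length slope left Cox18 at 0.58 in sedentary mice (adjusted p = 0.00858).

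Cox20 binds and protects newly made Cox2. It had 16.9, 22.0, 20.94, 17.38 and 18.28 CPM in vehicle sedentary mice and 16.84, 15.67, 14.9, 13.62 and 13.27 CPM in OC sedentary mice. In running mice it had 22.99, 15.12, 19.61, 19.48 and 21.8 CPM on vehicle and 18.03, 11.78, 14.99, 16.98 and 17.78 CPM on OC. The sedentary groups were apart and the running groups overlapped. Neither comparison alone passed (adjusted p = 0.055 and 0.101), while the average over activity did (log2 fold change -0.34, SE 0.089, adjusted p = 0.0084), and the call held in all 20 fits that left out 1 library and was lost with library totals.

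Sco2, a copper chaperone of Cox2, was at 42.81 ± 6.41 CPM in vehicle sedentary, 46.66 ± 10.05 in vehicle running, 35.16 ± 4.77 in OC sedentary and 36.05 ± 8.76 in OC running mice (SD, n = 5). It was lower on OC on average (log2 fold change -0.33, SE 0.11, adjusted p = 0.0384), a call that held in 9 of the 20 fits without 1 library. Its partner Sco1 did not pass (log2 fold change -0.12, 95% interval -0.303 to 0.054). Of these proteins that act on Cox2, Cox18 was called higher and Cox20 and Sco2 lower on average, and Sco1 did not pass. The average call of Cox18 was lost under DESeq2, without the filter, with displaced lines moved back and with the length slope. It was also lost without OC running replicate 1 and OC sedentary replicate 3 together. Leaving out vehicle running replicate 2, OC sedentary replicate 3 and OC running replicate 5 together ended it too. The average call of Sco2 was lost with library totals and with displaced lines moved back.

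Cox10 and Cox15 make heme A, the cofactor of complex IV. Cox15 (ENSMUSG00000040018, chromosome 19, 43733254 to 43753000, minus strand) had 47.75, 32.7, 32.52, 39.03 and 34.23 CPM in vehicle running mice and 25.98, 30.16, 26.48, 29.71 and 33.54 CPM in OC running mice. The groups overlapped at the edge, with vehicle replicate 1 far above the rest. The log2 fold change was -0.35 (SE 0.12, adjusted p = 0.0488), and the call held in 5 of 20 fits without 1 library and was lost under limma voom (with the length slope: adjusted p = 0.249). In sedentary mice Cox15 was at 27.99 ± 3.07 CPM on vehicle and 30.71 ± 3.75 on OC and did not pass. Cox10 had a log2 fold change of 0.36 in sedentary mice (95% interval 0.048 to 0.663, adjusted p = 0.103) and -0.17 in running mice (-0.471 to 0.134).

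Of the 6 complex III assembly factors, Uqcc3 alone was called, higher on OC averaged over activity. Uqcc3 stabilises newly made cytochrome b. It was at 27.33 ± 3.11 CPM in vehicle sedentary, 29.07 ± 2.22 in vehicle running, 31.04 ± 3.16 in OC sedentary and 35.23 ± 3.81 in OC running mice (SD, n = 5). The average log2 fold change was 0.23 (SE 0.069, adjusted p = 0.0188), and the call held in all 20 fits without 1 library. Its partner in cytochrome b assembly, Uqcc2, had -0.42 in sedentary mice (95% interval -0.804 to -0.042) and did not pass (adjusted p = 0.119). Bcs1l, which inserts the Rieske protein, had an average log2 fold change of 0.010 (95% interval -0.166 to 0.186). Of the other complex IV factors, Surf1 and Lrpprc, which keeps mitochondrial mRNA stable, had average changes of 0.051 (-0.069 to 0.170) and -0.040 (-0.183 to 0.103).

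**Figure D5:**
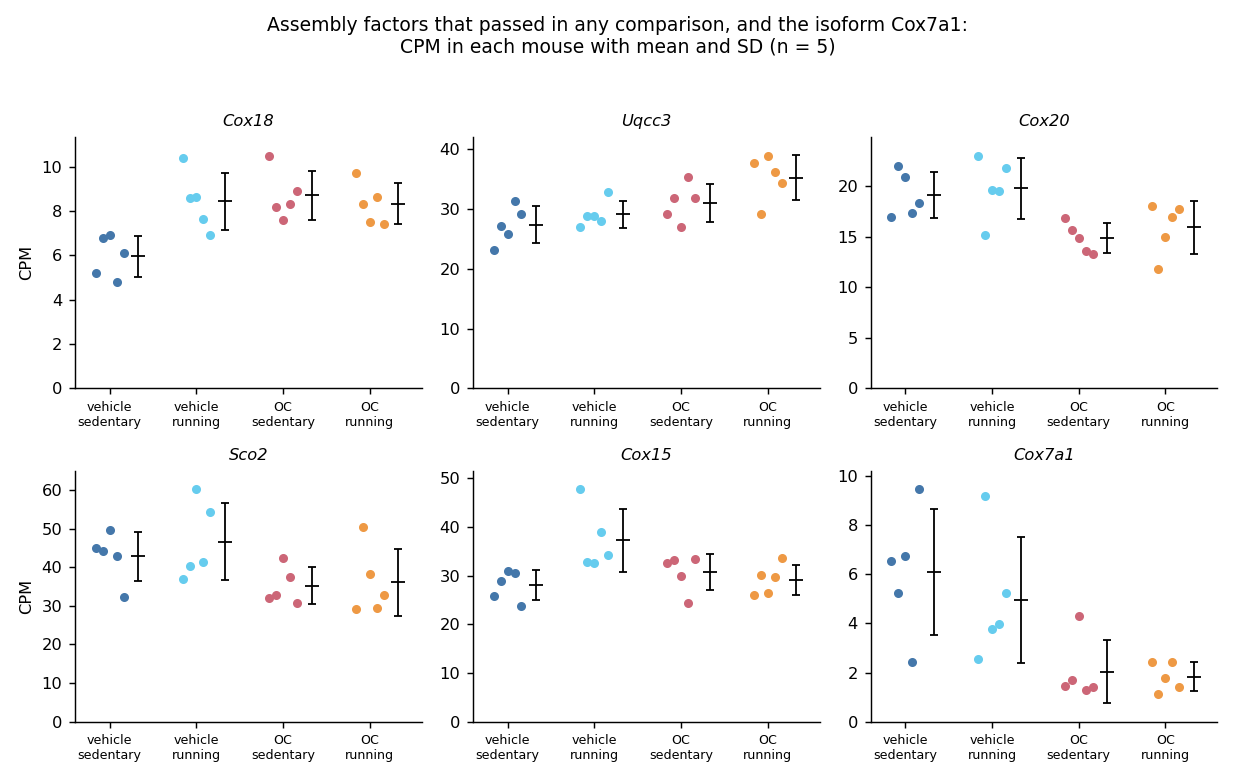
CPM (vertical axes, from 0) of the 5 assembly factors that passed in any comparison and of the isoform Cox7a1 in each mouse of the 4 groups (points), with the mean and SD (bars, n = 5). Vehicle sedentary mice are the low group for Cox18 at 4.82 to 6.904 CPM, and vehicle running replicate 1 is the highest point for Cox15 at 47.75 CPM.

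Other genes of the complexes, outside the chosen list, were also fixed as a list of 36, of which 12 were tested. Only Cox7a1, the complex IV isoform of heart and skeletal muscle, was called. It had 6.544, 5.217, 6.75, 2.41 and 9.45 CPM in vehicle sedentary mice and 1.458, 1.691, 4.301, 1.288 and 1.396 CPM in OC sedentary mice. In running mice it had 2.533, 9.182, 3.747, 3.975 and 5.217 CPM on vehicle and 2.429, 1.122, 1.79, 2.415 and 1.4 CPM on OC. The running groups did not overlap, and in the sedentary groups vehicle replicate 4 and OC replicate 3 crossed. The log2 fold changes were -1.58 (SE 0.39, adjusted p = 0.0091) in sedentary, -1.43 (SE 0.39, adjusted p = 0.0197) in running mice and -1.51 (SE 0.28, adjusted p = 0.00042) on average. Over all genes 16.3%, 13.2% and 22.9% were called in either direction in these comparisons.

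Muscle transcripts were present in a few libraries. Of 5 skeletal muscle markers on the fixed list 0 had an intact line. Myoglobin (Mb, chosen after its values were seen) had 396 counts in vehicle running replicate 2, 447 in OC sedentary replicate 3 and 147 in OC running replicate 5, and 0 to 7 counts in the other libraries. Cox6a2, the muscle isoform of Cox6a1, had 55, 181 and 19 counts in those 3 libraries and 0 to 4 in the others. Cox8b, from the list of other genes of the complexes, followed this less closely. It had 29, 40 and 4 counts in the 3 libraries, 24 in vehicle running replicate 5 and 0 to 5 in the rest. Leaving out vehicle running replicate 2 alone ended the running call of Cox7a1 (adjusted p = 0.0654). Without the 3 libraries the Cox7a1 log2 fold changes were -2.05 in sedentary (adjusted p = 0.000605), -1.01 in running mice (adjusted p = 0.0567) and -1.53 on average (adjusted p = 0.000162). In that fit 7 subunits were called lower in sedentary mice, 1 in running mice and 3 on average.

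Complex I feeds electrons to coenzyme Q, and its 37 listed nuclear subunits were all tested. In sedentary mice on OC 13 fell and 0 rose (median log2 fold change -0.32), against 7.2% of all genes lower. In running mice 3 fell and 0 rose (median 0.010), against 6.06% lower. The sedentary count was 6 without replicate 5 of the vehicle sedentary group or replicate 1 of the OC sedentary group, 8 without replicate 3 of the OC sedentary group, 3 with library totals and 20 with DESeq2. The smallest adjusted p in sedentary mice were those of Ndufa5 (-0.57, adjusted p = 0.0013), Ndufa9 (-0.37, adjusted p = 0.0091), Ndufb8 (-0.59, adjusted p = 0.0146) and Ndufs3 (-0.31, adjusted p = 0.0156). In running mice they were those of Ndufv1 (-0.36, adjusted p = 0.0068), Ndufs1 (-0.40, adjusted p = 0.0098) and Ndufa10 (-0.28, adjusted p = 0.0488). Ndufa10 held in 7 of 20 fits without 1 library and was lost under limma voom, library totals, no filter, only the 2 groups and the length slope, and Ndufs1 was lost with the length slope. With the length slope the counts were 14 in sedentary and 6 in running mice, and the interaction median fell from 0.34 to 0.027.

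Of coenzyme Q synthesis genes, whose product is the electron donor of complex III, 11 of 13 were tested. In sedentary mice on OC Coq8b (-0.42, adjusted p = 0.0150) and Coq6 (-0.29, adjusted p = 0.0274) fell and 0 rose (either direction: 16.3% of all genes). In running mice Coq6 fell (-0.28, adjusted p = 0.0380) and Coq10b rose (0.86, adjusted p = 0.0085), against 13.2% of all genes in either direction. The running call of Coq10b was lost with the length slope. Those of Coq6 held in 16 of 20 fits without 1 library in sedentary mice and 13 of 20 in running mice, and were lost with library totals, no filter and only the 2 groups. The call of Coq8b was lost with library totals and without vehicle sedentary replicates 2 and 5 together. Of 15 listed regulators of mitochondrial biogenesis 4 were tested and 0 were called. Nrf1, whose motif was searched above, was at 13.3 ± 1.3 CPM in vehicle sedentary and 13.3 ± 1.4 CPM in OC sedentary mice (log2 fold change -0.0028, adjusted p = 0.991). Yy1 had 0.031 (adjusted p = 0.866), and Polrmt, the mitochondrial RNA polymerase, had 0.25 (adjusted p = 0.0927).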

How the data were processed

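Liver RNA from 20 mice was sequenced as stranded, paired-end libraries, per the labels' protocols. The submitters' processing notes name STAR, the build mm10, limma and R 4.05. The counting program, annotation and strand setting are not given in the sources used here. The authors deposited expected counts per gene, judged from the values (2 unused genes were not whole). All values used were whole, so rounding changed none, although plain counts had been assumed when the tests were planned.

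Of 35504 genes, 23993 had an intact line. The others were displaced, undecided (806) or not whole (2) and were not used. Counts were fitted with edgeR 4.0.16 in R 4.3.3 (filterByExpr, TMM, quasi-likelihood, 1 mean per group, all 20 libraries), with Benjamini-Hochberg adjustment over 10207 genes. Every adjusted p is from this test unless another tool is named. Gene positions and transcript lengths are from GENCODE vM21 (GRCm38), and log2 CPM values used a prior count of 2.

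The members and lists were chosen with earlier results of these data known. Called members (at most 8 per role and comparison, by adjusted p) are given with values per mouse, by group or by their test, and at most 4 called genes per other list and comparison are named. Alternatives were DESeq2 1.42.0, limma 3.58.1 voom, library totals, no filter, only the 2 groups compared, displaced lines moved back and each library left out. The length slope, the libraries at its ends and the muscle libraries were added after seeing the data. The fits were checked on simulated counts.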

Additional observations from a re-analysis of the deposited data

Results flagged for a closer look

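In groups of 5 mice, 5 of 148 combinations of gene and group held a library far from the other 4 by Dixon's test, where chance flags about 1 in 20. Of these, 4 were replicate 5 of the vehicle sedentary group. It had 665.7 CPM of Uqcrh (nearest mouse 514.6), 998.9 CPM of Cox4i1 (nearest 736.1), 387 CPM of Cox5b (nearest 283.6) and 325.1 CPM of Cox7c (nearest 261.2). Without this library Uqcrh and Cox5b were still called lower on OC in sedentary mice, and Cox4i1 and Cox7c were not. The other was replicate 4 of the OC running group, with 28.1 CPM of Coa7 (nearest 23.19), a complex IV assembly factor that was not called in any comparison.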

How the results depend on the processing

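None of the 23 calls changed direction in the alternatives run. Of 23 calls, 22 held under DESeq2, 22 under limma voom, 18 without the filter, 17 with displaced lines moved back, 9 with library totals and 20 with the length slope.

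For OC in sedentary mice the 9 subunit calls became 4 with library totals and 2 without vehicle sedentary replicates 2 and 5. The 1 assembly call became 2 with DESeq2, 3 with totals, 2 with only the 2 groups and 2 with the length slope. In running mice the 1 subunit call became 0 with totals, 3 with the length slope and 0 without the libraries at the ends of the slope (OC running replicate 1 and OC sedentary replicate 3). There the 1 assembly call became 3 with DESeq2, 2 with totals, 2 with lines moved back and 2 without the muscle libraries. It became 0 with voom, no filter, only the 2 groups, the length slope, and without the ends of the slope. Averaged over activity the 7 subunit calls became 2 with totals, 4 with lines moved back, 12 with the length slope and 3 without the muscle libraries, and the 4 assembly calls became 2 with lines moved back. For the interaction DESeq2 called 1 subunit (Uqcrh) and 1 assembly factor (Coa5) where edgeR called 0.

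Leaving out each library gave 5 to 10 subunits and 1 to 2 assembly factors in sedentary mice, 0 to 1 and 0 to 4 in running mice, and 3 to 10 and 2 to 4 on average. Running and the interaction gave 0 to 0 in those fits. No paired analysis was possible because replicate numbers follow the order of accession and tie no mice across groups. With 5 mice per group, an uncalled change is not shown to be absent, and its 95% interval gives the range of sizes.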
